A study of Homo sapiens with 4 samples.

Results

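The 10 genes described here encode TGF-beta ligands (TGFB1, TGFB2), their receptors (TGFBR1, TGFBR2), the SMAD proteins that carry the signal (SMAD2, SMAD3, SMAD4) and brakes on the pathway (SMAD7, SKIL, BAMBI). They were taken by symbol from a table of 20322 targets, each standing for 1 gene, and all 10 were found. Expression was measured by RNA-seq of short fragments from lysed cells of HT-29, a human colorectal adenocarcinoma line that forms epithelial sheets. Every library carries a CRISPR/Cas9 edit aimed at IMP1 (gene IGF2BP1), an mRNA-binding protein of fetal tissues and tumours, and every culture was kept in DMEM-H with serum and puromycin. The null group (2 libraries) holds the empty PiggyBac vector PB*-empty, and the IMP1-OE group (2 libraries) holds PB*-FLAG-IMP1-short UTR, which puts a tagged IMP1 back. Both groups are labelled as derived from mouse liver metastases. The sources used here do not give the vector's promoter or the number of clones, nor say whether the libraries of a group came from separate cultures. P-values then measure only the spread between these libraries, which may be technical.

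TGF-beta ligands are secreted in a latent form, held by latent TGF-beta binding proteins and released by integrins and thrombospondin. The freed ligand binds the kinase receptor TGFBR2, which recruits and phosphorylates TGFBR1. TGFBR1 then phosphorylates SMAD2 and SMAD3, which enter the nucleus with the shared partner SMAD4. In the intestinal epithelium this pathway restrains growth, and colorectal tumours often lose a part of it. HT-29 itself is known to carry a truncating mutation of SMAD4.

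As a check of the labels, IGF2BP1 itself had 37 counts in null replicate 1, 16 in null replicate 2, and 71 and 112 in IMP1-OE replicates 1 and 2. That order follows the labels, although the edgeR adjusted p was 0.453. Totals ran from 9343429 to 10594813 counts a library, and a count of 0 would allow up to 3 counts, or 0.283 to 0.321 CPM (counts scaled to the same total in every library). Epithelial keratin and adhesion genes were abundant in all 4 libraries, with KRT8 at 9484 to 12830 CPM and EPCAM at 823 to 1049 CPM, although the intestinal factor CDX2 had 47 counts in null replicate 1 and 0 to 3 in the others. Null replicate 2 stood apart: 20 of 20 interferon-stimulated genes were at least 2-fold above null replicate 1, where 9.87% of all tested genes were. That list was chosen with earlier results of these data known. The summed level of its genes was 7670 CPM in null replicate 2 against 708 to 971 CPM in the other 3 libraries. Each member is therefore given with the null libraries shown apart. CPM values below are scaled by edgeR's TMM method, and group values are mean ± SD (n = 2).

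With all 4 libraries, the ligands had the largest fitted differences between the groups among the 10 members, in opposite directions. TGFB1 (ENSG00000105329.11), the main TGF-beta of adult tissues, stood at 5.28 CPM in null replicate 1, 55.3 CPM in null replicate 2, and 2.47 and 3.23 CPM in IMP1-OE. The counts behind these levels were 54, 505, 26 and 34. TGFB1 was thus high in 1 null library, and the groups did not overlap because null replicate 1 also lay above both IMP1-OE libraries.

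TGFB1 averaged 30.3 ± 35.3 CPM in null and 2.85 ± 0.536 CPM in IMP1-OE, 10.6-fold lower by the fit. Its log2 fold change (IMP1-OE over null) was -3.40 (SE 1.05). The unadjusted p was 0.0183, and adjustment over 12113 genes by edgeR gave 0.450, above the threshold of 0.05. Without null replicate 2 the log2 fold change was -0.89, and without null replicate 1 it was -4.27. Each of these fits keeps 1 null library, so the spread within null is not measured. By limma-voom, which averages log levels, the log2 fold change was -2.50 with all 4 libraries. In a culture, fewer cells that make an mRNA and less of that mRNA per cell cannot be told apart.

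TGFB2 (ENSG00000092969.12), a ligand best known from development, showed the reverse order. It stood at 9.78 CPM in null replicate 1, 0.985 CPM in null replicate 2, and 22.6 and 26.7 CPM in IMP1-OE, from 100, 9, 237 and 281 counts. Both IMP1-OE libraries lay above both null libraries, and the library highest in TGFB1 was the lowest in TGFB2.

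TGFB2 averaged 5.38 ± 6.22 CPM in null and 24.6 ± 2.94 CPM in IMP1-OE, 4.53-fold higher by the fit. Its log2 fold change of 2.18 (SE 0.87) had a p of 0.0463 before and 0.484 after adjustment by edgeR. Leaving out null replicate 2 gave 1.33. Leaving out null replicate 1 gave 4.63, and limma-voom gave 2.84 with all 4 libraries. The sign was the same in all 4 omissions, while its size followed the null library that was kept.

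The ligand genes have unlike start regions, shown here because their mRNAs went opposite ways. These are the 30 bases from -49 to -20 of the annotated start in RefSeq (GRCh38.p14), at chr1:218345287-218345316 (plus strand) for TGFB2 and chr19:41353942-41353971 (minus strand) for TGFB1. Capitals mark the E-box CACGTG and the TATA sequence TATAAA.
TGFB2: CACGTGgttcagagagaactTATAAAtctc
TGFB1: gtggggccgggggcggcttcaaaaccccct
Over the whole window of 300 bases, G and C made up 51.7% of the TGFB2 promoter and 77.3% of that of TGFB1, against a median of 58.7% over all promoters. On either strand, TATAAA stood in 11.5% and CACGTG in 7.26% of 35116 promoter windows. Counted by gene over any of its windows, the interferon-type motif GAAANNGAAA stood in 12 of 15 interferon-stimulated genes with an entry. Counted by window, it stood in 3.57% of all windows and in 0 of the 25 windows of the 10 members. At so low a share, 0 of 25 does not set the members apart. The motif GTCTAGAC, a palindromic SMAD box, was also in 0 of the 25, and its shorter form CAGAC was in 12 of the 25 against 45.3% of all windows. These are letter matches only.

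**Figure D1:**
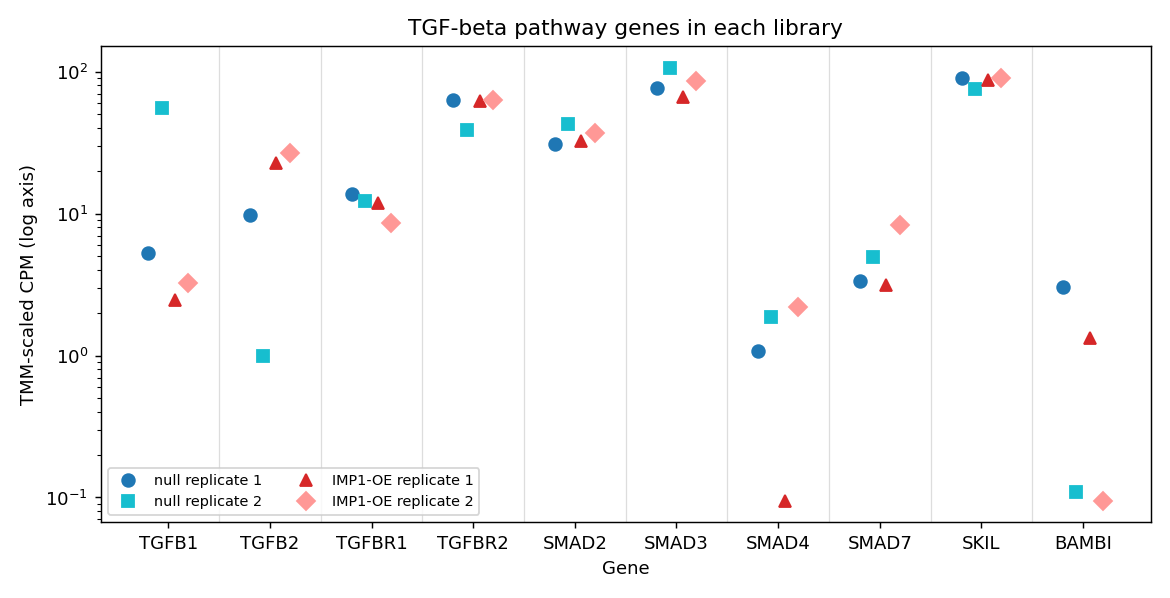
TMM-scaled CPM (log axis) of each of the 10 genes in the 4 libraries, 1 point a library. TGFB1 is at 55.3 CPM in null replicate 2 and at 2.47 to 5.28 CPM elsewhere, TGFB2 is lowest in null replicate 2 at 0.985 CPM, and most other genes lie close together, except SMAD4 and BAMBI, which have 1 count in some libraries.

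Receptor mRNAs differed less. TGFBR2 (ENSG00000163513.19), the receptor that binds the ligand, was at 63.6 CPM in null replicate 1, 38.6 CPM in null replicate 2, and 61.9 and 62.7 CPM in IMP1-OE. Null replicate 2 was the low library and the other 3 were within 2 CPM of each other. The log2 fold change of TGFBR2 was 0.28 (SE 0.27, edgeR adjusted p = 0.760). It changed to -0.03 when null replicate 2 was left out and to 0.69 when null replicate 1 was.

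TGFBR1 (ENSG00000106799.13), the signalling receptor kinase, was at 13.7 and 12.3 CPM in null and at 11.9 and 8.65 CPM in IMP1-OE. The groups did not overlap, but the nearest libraries of the groups were closer than the libraries within IMP1-OE. The log2 fold change was -0.34 (SE 0.33, edgeR adjusted p = 0.766).

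The receptor-activated SMADs varied little. SMAD3 (ENSG00000166949.17), which binds DNA itself, was at 77.3 and 107 CPM in null and at 65.8 and 86.5 CPM in IMP1-OE. SMAD2 (ENSG00000175387.16), whose main form does not bind DNA directly, was at 30.8 and 42.8 CPM in null and at 32.5 and 37.0 CPM in IMP1-OE. The groups overlapped for both, with log2 fold changes of -0.27 (SE 0.24) for SMAD3 and -0.08 (SE 0.24) for SMAD2 and edgeR adjusted p of 0.743 and 0.934. SMAD2 and SMAD3 are close paralogs, and fragments of 18 to 50 nt from stretches they share could be assigned to either.

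SMAD4 (ENSG00000141646.15), the common partner, was barely detected. It had 11 and 17 counts in null and 1 and 23 in IMP1-OE, on a target of 8495 nt. The IMP1-OE libraries thus held both the lowest and the highest count, and the ratio of the second to the first was 23.0 (95% interval 3.73 to 946, exact Clopper-Pearson, counting error only). The log2 fold change was -0.36 (SE 1.31, edgeR adjusted p = 0.949), turning to 0.57 without IMP1-OE replicate 1 and to 0.08 without null replicate 2, and reaching -3.77 without IMP1-OE replicate 2.

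Among the brakes, SKIL and SMAD7 are themselves induced by TGF-beta in many cells. SKIL (ENSG00000136603.14), which encodes the SMAD co-repressor SnoN, was at 90.7 and 75.5 CPM in null and at 86.7 and 90.6 CPM in IMP1-OE. Null replicate 2 was again the low library, and the log2 fold change was 0.09 (SE 0.18, edgeR adjusted p = 0.895), or -0.03 without null replicate 2. SMAD7 (ENSG00000101665.10), the inhibitory SMAD that blocks TGFBR1, was at 3.33 and 4.92 CPM in null and at 3.14 and 8.27 CPM in IMP1-OE. SMAD7 spanned the null range within the IMP1-OE group, with a log2 fold change of 0.47 (SE 0.62, edgeR adjusted p = 0.836) that was -0.38 without IMP1-OE replicate 2.

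BAMBI (ENSG00000095739.11), a decoy receptor without a kinase domain, split each group. It had 31 counts in null replicate 1 and 1 in null replicate 2, and 14 in IMP1-OE replicate 1 and 1 in IMP1-OE replicate 2. The ratio of null replicate 1 to null replicate 2 was 27.7 (95% interval 4.62 to 1129, counting error only). That of IMP1-OE replicate 1 to replicate 2 was 14.02 (2.13 to 593). The log2 fold change was -1.14 (SE 1.62, edgeR adjusted p = 0.847), but 2.57 without null replicate 1, and -2.07 without null replicate 2. BAMBI therefore had no direction between the groups that held for every choice of libraries.

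**Figure D2:**
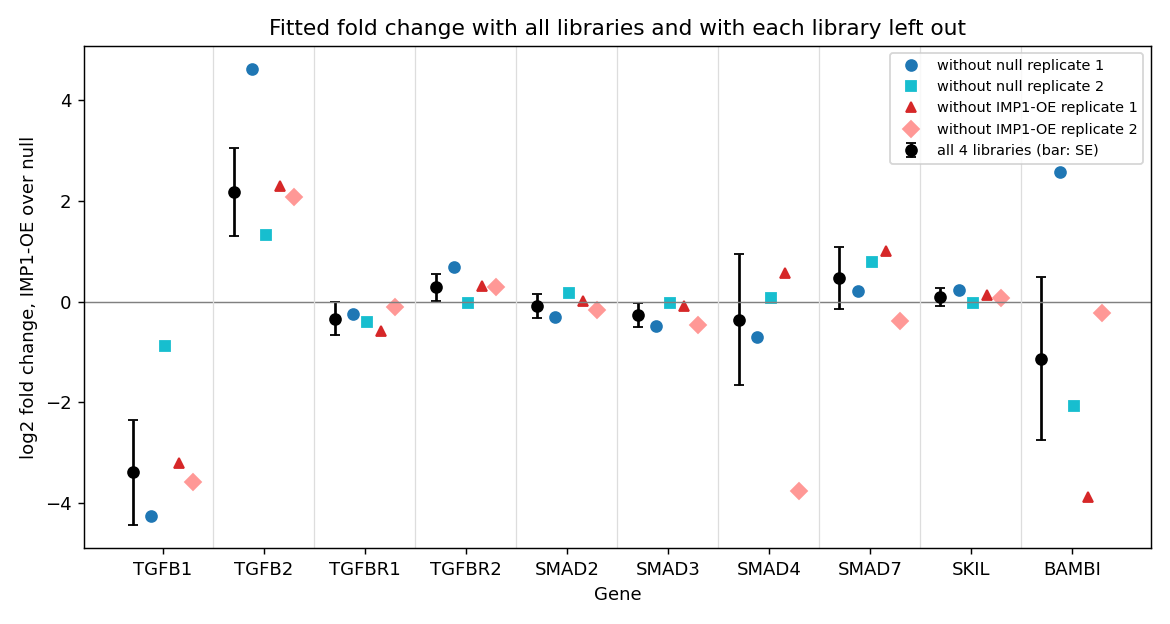
Fitted log2 fold change, IMP1-OE over null, for each gene with all 4 libraries (black, bar: SE) and with each library left out. TGFB1 lies at -3.40 with all libraries and at -0.89 without null replicate 2, TGFB2 stays above 0 at 1.33 to 4.63, and SMAD2, SMAD4, SMAD7, SKIL, TGFBR2 and BAMBI have values on both sides of 0.

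All 10 members passed edgeR's low-count filter. Of the 10, 0 passed an edgeR adjusted p of 0.05, where 0% of all tested genes did. At an unadjusted p under 0.05 there were 2 members (TGFB1 and TGFB2), and 10.2% of all tested genes met that level. By DESeq2 0 members passed adjustment and 2 had an unadjusted p under 0.05, and by limma-voom these counts were 0 and 1. Of the 10, 0 pass in the authors' deposited table, where 1.28% of the genes with an adjusted p do. DESeq2 here called the same number, 164 of 12836 genes, so the deposited table is not a separate check. That table gives an adjusted p of 0.293 for TGFB1 and 0.186 for TGFB2, as does DESeq2 here. Its log2 fold changes are much smaller than the edgeR ones, at -0.033 (SE 0.167) for TGFB1 and 0.085 (SE 0.195) for TGFB2. DESeq2 here gave -3.40 for TGFB1 and 2.19 for TGFB2. The unadjusted p of its Wald test, 0.0143 for TGFB1 and 0.00611 for TGFB2, is the same as in the deposited table. Only the reported log2 fold changes thus differ, and the small ones are not a separate result.

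The groups did not overlap for 3 of the 10 (TGFB1, TGFB2 and TGFBR1), near the 43.2% of all tested genes for which this held. In IMP1-OE 4 members were higher and 6 lower, with a median log2 fold change of -0.18 against -0.02 over all tested genes. For 8 of the 10, the null libraries lay farther apart than the group means did on the log2 scale, as for 59.9% of all tested genes. The exceptions were TGFBR1 and SMAD4.

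Between the null libraries themselves, 1 member (TGFB1) was at least 2-fold higher in replicate 2, where 9.87% of all tested genes were, and 2 members (TGFB2 and BAMBI) were at least 2-fold lower, where 6.95% of all tested genes were. TGFB1 was 10.5 times as high in null replicate 2 (95% interval 7.89 to 14.1, counting error only), and 83 of the 12113 tested genes differed more in this direction. TGFB2 was 9.93 times as high in null replicate 1 (5.03 to 22.4), and 106 genes differed more in that direction. These intervals compare 2 libraries, not conditions. Within IMP1-OE the corresponding ratios of replicate 2 to replicate 1 were 1.31 (0.761 to 2.27) for TGFB1 and 1.18 (0.993 to 1.41) for TGFB2.

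Divided by effective target length, levels fell into tiers. SMAD3 averaged 13.05 CPM per kb over the 4 libraries (10.2 to 16.6), TGFBR2 12.6 (8.57 to 14.1) and SKIL 11.99 (10.6 to 12.7), and these ranges overlapped, so their order is not separated. TGFB1 averaged 6.01 CPM per kb but ran from 0.898 to 20.0. Next came SMAD2 at 3.43 CPM per kb (2.96 to 4.11), TGFB2 at 2.57 (0.169 to 4.57), TGFBR1 at 1.80 (1.34 to 2.12) and SMAD7 at 1.48 (0.947 to 2.49). BAMBI averaged 0.685 CPM per kb (0.0570 to 1.82) and SMAD4 0.154 (0.0112 to 0.258). Of all tested genes, 0.76% had a lower mean level per length than SMAD4, whereas 65.5% lay below SMAD3. The receptor that binds the ligand was thus above its signalling partner TGFBR1 in every library. Each gene is represented by a single deposited transcript, so a level on another isoform is not seen.

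The 5 tested genes whose profile over the 4 libraries lay nearest to that of TGFB1, by Euclidean distance of centred log2 CPM, were MUC16 (distance 0.245), IFI44 (0.260), WNT10A (0.377), HERC6 (0.432) and LOXL1 (0.497). MUC16 encodes a membrane mucin, IFI44 and HERC6 are induced by interferon, WNT10A is a Wnt ligand and LOXL1 an elastin-crosslinking oxidase. IFI44 stood at 31.5, 264, 14.4 and 20.6 CPM in null replicates 1 and 2 and IMP1-OE replicates 1 and 2, and LOXL1 at 2.25, 35.5, 1.52 and 2.19 CPM. Among the 100 nearest genes were 15 of the 20 interferon-stimulated genes. With only 4 libraries, of which 1 is high, this likeness describes that library, and the part of the interferon-high state in the TGFB1 level was not tested.

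**Figure D3:**
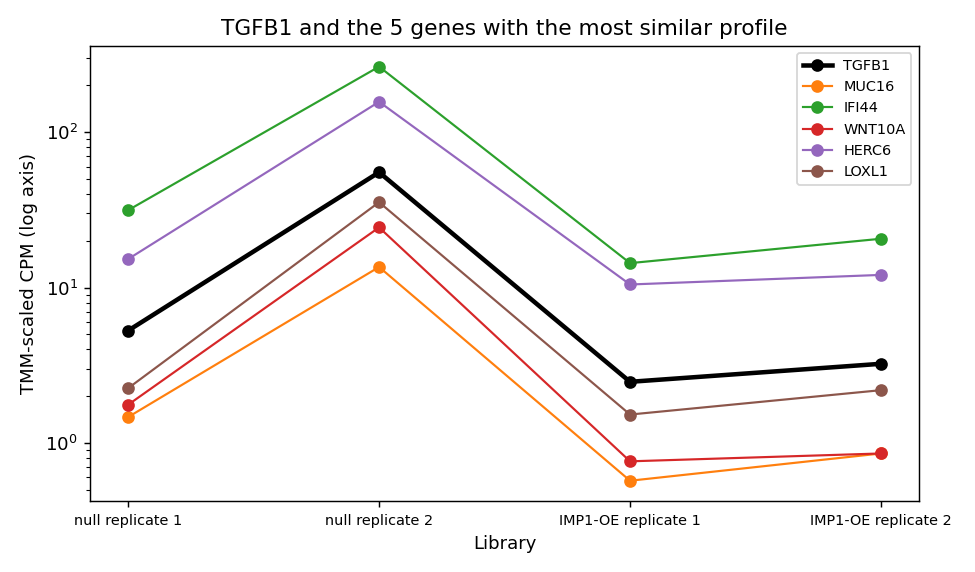
TMM-scaled CPM (log axis) of TGFB1 (thick black line) and the 5 genes with the nearest profile in the 4 libraries, with lines joining the points of a gene. All 6 peak in null replicate 2, where TGFB1 is at 55.3 CPM and IFI44 at 264 CPM.

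Around the members, 94 further genes of the TGF-beta and BMP (bone morphogenetic protein) pathways were examined in 5 lists, of which 67 passed the low-count filter. By edgeR 0 of the 67 passed an adjusted p of 0.05, and 9 had an unadjusted p under 0.05 (10.2% of all tested genes did), 3 higher and 6 lower in IMP1-OE. Of the 67, 24 were higher and 43 lower, with a median log2 fold change of -0.16, and the groups did not overlap for 27, where 43.2% of all tested genes did not. Both counts are near those shares. The authors' deposited table calls 1 of the 94, GDF15.

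Ligands and the proteins that hold or release them lay mostly lower in IMP1-OE (12 of 14 tested, median log2 fold change -0.47). GDF15, a stress-induced member of the ligand family, was at 362 and 295 CPM in null and at 152 and 124 CPM in IMP1-OE, with a log2 fold change of -1.25 (SE 0.20, edgeR adjusted p = 0.356). In the authors' deposited table its adjusted p is 8.23e-05. Both null libraries were clearly above both IMP1-OE libraries, so the GDF15 difference did not rest on null replicate 2. Without that library edgeR gave a log2 fold change of -1.39. LTBP1, a latent TGF-beta binding protein, was at 20.1 and 8.32 CPM in null and at 5.42 and 2.85 CPM in IMP1-OE. BMP2 stood at 5.58 and 10.7 CPM against 5.33 and 2.28 CPM. Leaving out null replicate 2 took the median of this list to 0.08, and leaving out null replicate 1 took it to -0.94.

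Between the null libraries, 6 of the 14 were at least 2-fold higher in replicate 2 and 1 (LTBP1) was at least 2-fold lower, against 9.87% and 6.95% of all tested genes. LTBP3, another latency protein, was at 64.7 CPM in null replicate 1, 195 CPM in null replicate 2 and 78.0 and 68.7 CPM in IMP1-OE. THBS1, whose protein thrombospondin-1 can activate latent TGF-beta, was also highest in null replicate 2, at 76.8, 225, 97.6 and 74.9 CPM in the same libraries. The integrin gene ITGB8 stood at 4.79, 16.4, 6.47 and 8.18 CPM. LTBP3, THBS1 and ITGB8 were singled out after their values were seen. In all 3 the high library was the one with high TGFB1.

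Receptors and co-receptors had 12 tested genes, of which 5 had a positive and 7 a negative log2 fold change (median -0.17). NEO1, the gene of neogenin, a receptor that also serves BMP signalling, was at 67.4 and 56.8 CPM in null and at 33.9 and 29.9 CPM in IMP1-OE, a log2 fold change of -0.96 (SE 0.20, edgeR adjusted p = 0.408). TGFBR3, the co-receptor betaglycan that presents TGF-beta2 to its receptor, was at 2.93 CPM in null replicate 1, 16.96 CPM in null replicate 2, and 2.28 and 1.14 CPM in IMP1-OE. The BMP receptor gene BMPR2 was at 19.8, 71.8, 21.9 and 26.9 CPM in the same order. NEO1 separated the groups, whereas TGFBR3 and BMPR2 mainly separated null replicate 2 from the rest.

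SMADs and nuclear partners were evenly divided, with 5 of 10 higher (median 0.12). IPO7, an import receptor, was at 262 and 250 CPM in null and at 362 and 395 CPM in IMP1-OE (log2 fold change 0.56, SE 0.16, edgeR adjusted p = 0.435). XPO4, an exportin that carries SMAD3, was at 47.7 and 56.5 CPM against 72.1 and 77.8 CPM. EP300, a histone acetyltransferase used by SMADs, was at 58.8 and 46.4 CPM against 75.0 and 67.7 CPM. Each of the 3, chosen for the smallest p in this list, was higher in both IMP1-OE libraries. The groups did not overlap for 43.2% of all tested genes. Between the null libraries 0 of the 10 were 2-fold apart. Of all tested genes, 9.87% were at least 2-fold higher and 6.95% at least 2-fold lower in null replicate 2.

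Inhibitors and turnover genes were also divided, with 8 of 17 higher (median -0.05). CHRD, the gene of the BMP antagonist chordin, was at 1.17 and 0.657 CPM in null and at 5.71 and 5.89 CPM in IMP1-OE, from 12, 6, 60 and 62 counts (log2 fold change 2.64, SE 0.64, edgeR adjusted p = 0.433). The deubiquitinase genes USP11 and USP15 lay on opposite sides, USP11 at 91.2 and 92.3 CPM against 75.2 and 60.4 CPM and USP15 at 29.5 and 25.1 CPM against 33.7 and 42.3 CPM. PMEPA1, a feedback inhibitor induced by TGF-beta and named after its values were seen, was at 9.39, 29.2, 7.23 and 13.8 CPM.

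Textbook target genes of TGF-beta and BMP were split 4 higher to 10 lower in IMP1-OE among 14 tested, with a median log2 fold change of -0.53. JUNB, an AP-1 subunit, was at 96.9 and 102 CPM in null and at 71.9 and 61.5 CPM in IMP1-OE (log2 fold change -0.58, SE 0.18, edgeR adjusted p = 0.451). CCN2, connective tissue growth factor, was at 14.3 and 5.14 CPM against 3.43 and 2.85 CPM. CDKN2B, which encodes the cell cycle inhibitor p15, was at 8.02 and 5.14 CPM against 2.19 and 3.23 CPM. All 3, chosen for the smallest p in this list, were lower in both IMP1-OE libraries. The groups did not overlap for 43.2% of all tested genes.

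In null replicate 2, target genes went both ways, with 2 of 14 at least 2-fold above null replicate 1 and 5 at least 2-fold below, against 9.87% and 6.95% of all tested genes. The genes named next were chosen for that gap, after their values were seen. The matrix protein gene TGFBI was at 95.3 CPM in null replicate 1, 317 CPM in null replicate 2 and 92.8 and 91.5 CPM in IMP1-OE. On the other side were SNAI1, a repressor of E-cadherin, at 4.89, 0.876, 2.67 and 2.00 CPM, LMCD1 at 11.4, 2.85, 8.85 and 9.60 CPM, CCN2, COL1A1, and the BMP target ID2 at 76.6, 35.9, 106 and 89.0 CPM. The library with the most TGFB1 had the highest TGFBI of the 4, and the highest PMEPA1 of the inhibitor list. It also had the lowest SNAI1 (8 counts there), LMCD1 and ID2. All of these were picked after their values were seen, so their order does not describe target genes at large. A link to the TGFB1 level was not tested.

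**Figure D4:**
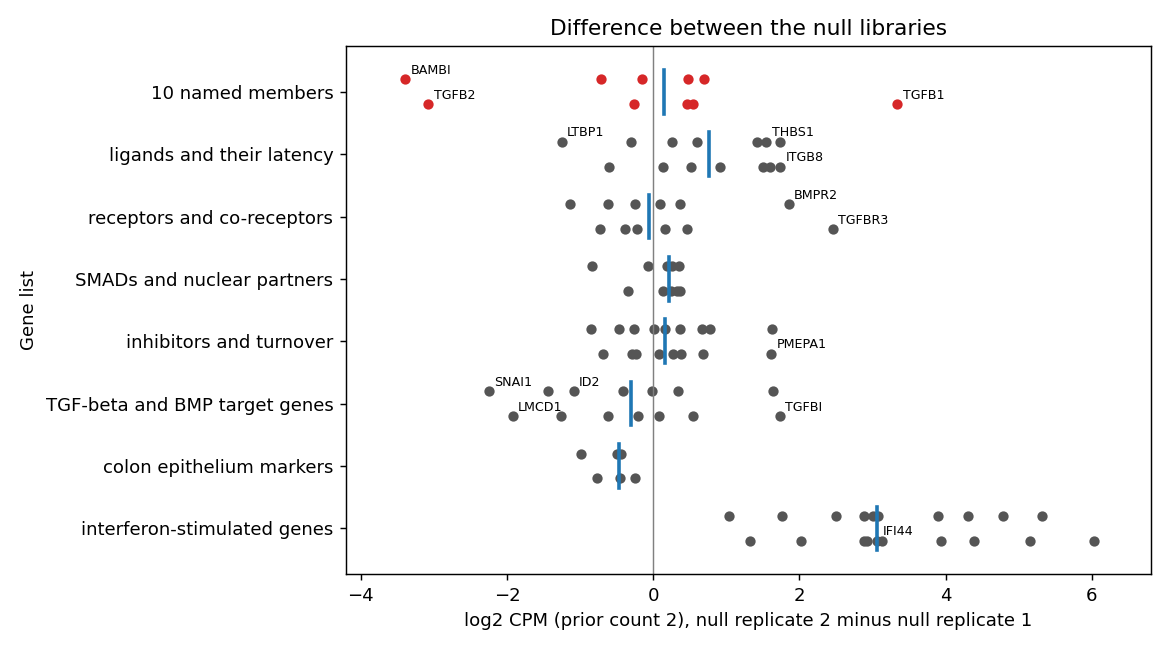
Difference between the null libraries in log2 CPM (prior count 2), replicate 2 minus replicate 1, for the 10 members (red), tested genes of the 5 pathway lists and of 2 marker lists (grey), with each list's median as a blue line. TGFB1 lies at 3.34, beside the interferon-stimulated genes (median 3.07), while TGFB2 and BAMBI lie at -3.08 and -3.39.

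Markers of other cells that can make TGF-beta were read beside the TGFB1 level. All are human targets, so they cannot show whether cells of the mouse were carried over from the metastases. Summed fibroblast markers (9 genes) were at 2.41 CPM in null replicate 2 and at 2.76 to 13.7 CPM in the other libraries, and PDGFRA had 0 counts in all 4. Of 9 immune cell markers, PTPRC, the pan-leukocyte gene, had 0 counts in null replicate 2, as did CD3E and NKG7, while CD14 was at 52.3 CPM there against 8.84 to 18.8 CPM elsewhere. Summed immune markers were 1447 CPM in null replicate 2 and 1759 to 2835 CPM in the others, nearly all of it LYZ, which intestinal epithelium also makes. Summed endothelial markers (5 genes) were 2.96 CPM there and 4.01 to 4.75 CPM in the others. CD14 was thus the marker that was high in the same library as TGFB1, and its part in the TGFB1 level was not tested.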

How the data were processed

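Estimated counts per target in 4 libraries were analysed as the authors deposited them, all whole numbers, with column names of kallisto per the file headers. The submitters' processing notes list kallisto 0.46.2, cutadapt 3.5, fastp 0.21, HISAT2 2.1.0 and DESeq, with no role for any. The genome build and annotation were not given in the sources used here. Per the labels' protocols, RNA was fragmented to 18 to 50 nt and amplified by PCR with random identifiers in the linkers. Whether these were used to remove copies is not given, so intervals and floors cover counting error only. The authors' deposited table supplied log2 fold changes and p-values. Its signal column, per the file headers a mean of normalized counts that the authors made over libraries, was not used. In the count table, 2 further sample names match no label and were not used.

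Genes were tested with edgeR 4.0.16 in R 4.3.3 (TMM, default filter, 12113 genes kept, quasi-likelihood F test, Benjamini-Hochberg over all kept genes, threshold 0.05) and checked on simulated counts. Alternatives were voom in limma 3.58.1, DESeq2 1.42.0, different filters and scalings, ARSI left out (it took 8.01% to 17.8% of counts), the replicate number as a block and each library left out, on the genes kept in the 4-library fit. An exact permutation test of 2 against 2 cannot go below p = 0.333. CPM per kb uses the deposited effective length. Members and lists were chosen with earlier results of these data known. Described are all 10 members, the 3 genes of each list with the smallest p, any that the authors call, and the 5 genes nearest to TGFB1. The values of 1 target gene are not reported here. Of the 94 list genes, 1 was matched by an older symbol. Promoters are RefSeq windows from 250 bases before to 50 after a start.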

Additional observations from a re-analysis of the deposited data

How the results depend on the processing

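Of 129 member values under 13 alternatives, 119 kept their direction and side of the threshold, 2 passed it and 8 changed sign, all of the last 2 kinds with a library left out. BAMBI had no value under the stricter filter. Without each library in turn, the log2 fold change ran from -4.27 to -0.89 for TGFB1 and from 1.33 to 4.63 for TGFB2, which both passed without null replicate 1. It ran from -0.03 (without null replicate 2) to 0.69 for TGFBR2, from -0.30 to 0.17 for SMAD2 (0.01 without IMP1-OE replicate 1, 0.17 without null replicate 2), from -3.77 to 0.57 for SMAD4 (0.57 without IMP1-OE replicate 1, 0.08 without null replicate 2), from -0.38 (without IMP1-OE replicate 2) to 1.00 for SMAD7, from -0.03 (without null replicate 2) to 0.23 for SKIL and from -3.89 to 2.57 (without null replicate 1) for BAMBI. Fewer libraries leave a group with 1, assumed to vary like the other group. Over all genes, 0 passed in edgeR, 22 without the low-count filter, 164 by DESeq2, 1 by limma-voom, and 0 to 783 with a library left out, 783 without null replicate 1 and 48 without null replicate 2. List counts past the threshold were 0 in the 4-library fit and, with a library left out, 0 to 3 for ligands and latency, 0 to 2 for receptors, 0 to 1 for inhibitors (STRAP) and 0 to 2 for target genes (TGFBI and ID2), all above 0 without null replicate 1; DESeq2 called 1 ligand (GDF15). The ligand median ran from -0.94 to 0.08, that of receptors from -0.39 to 0.00, of SMADs and partners from 0.04 to 0.24 (-0.01 without the low-count filter and 0.00 by DESeq2), and of target genes from -0.69 to -0.24. The cause of these shifts was not tested.

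Replicate numbers are shared by the groups, but nothing in the labels pairs the cultures, and same-numbered libraries deviated with a correlation of 0.12 over 12113 genes. With the replicate block, 15 genes passed, none of them a member, with TGFB1 at -2.71 (adjusted p = 0.321) and TGFB2 at 2.67 (adjusted p = 0.354). Depth limits SMAD4 and BAMBI, which had 1 count in at least 1 library.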
